A study of Mus musculus with 2 samples.

Results

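The miR-99/100 and miR-125 genes of the mouse are 6 microRNA (miRNA) genes, Mir99a, Mir99b, Mir100, Mir125a, Mir125b-1 and Mir125b-2, out of 2202 miRNA genes in the deposited tables. They were taken by gene symbol in the GENCODE M21 annotation. The symbols fall into 3 paralogous clusters, each with 1 gene of either family: Mir99a with Mir125b-2, Mir100 with Mir125b-1, and Mir99b with Mir125a. All 6 had reads in both libraries and passed the minimum of 10 reads in total, which 472 of the 2202 genes did.

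A miRNA is cut from a hairpin precursor, and its short mature strand guides Argonaute proteins to messenger RNAs that pair with the seed, bases 2 to 8 of the mature strand. miR-125 is the vertebrate relative of lin-4, the founding miRNA of the heterochronic pathway that times larval development in worms. miR-99 and miR-100 form an old family known for targeting mTOR and other growth regulators. In vertebrates both families sit beside a let-7 gene, and miR-125b is known as an abundant miRNA of neurons.

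The mature strands show which reads can tell the paralogs apart, so they are given first (RefSeq, GRCm38.p6, 5′ to 3′, seed in capitals). All 6 genes matched RefSeq, with 12 mature strands of 11 different sequences. The 5p strands carry the family seeds:
miR-99a-5p: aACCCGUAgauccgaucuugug
miR-100-5p: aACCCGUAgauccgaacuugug
miR-99b-5p: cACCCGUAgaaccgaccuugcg
miR-125a-5p: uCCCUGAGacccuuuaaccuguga
miR-125b-5p: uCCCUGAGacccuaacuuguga

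The seed ACCCGUA belonged to the 3 miR-99/100 strands and to no other of 1738 mature strands in the RefSeq table (0.173%). Counted from the 5′ end, miR-100-5p differs from miR-99a-5p by U16A alone. miR-99b-5p differs from miR-99a-5p by A1C, U11A, U16C and U21C. Each full-length 5p strand of this family is therefore a sequence of its own, and no other annotated locus held any of them. miR-125a-5p, of 24 bases, and miR-125b-5p, of 22, share their first 13 bases and lie 3 edits apart.

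miR-125b-5p is the same sequence at Mir125b-1 and Mir125b-2. The hairpins of these 2 genes share a stretch of 24 bases that holds the whole strand, so a read of it fits both loci. The tables give multimapping reads as a total on a separate line, under no gene. The counts of Mir125b-1 and Mir125b-2 can thus leave out most reads of the 5p strand, and how many was not tested. The 3p strands, from the other arm of the hairpin, separate the 2 genes:
miR-125b-1-3p: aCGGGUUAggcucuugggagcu
miR-125b-2-3p: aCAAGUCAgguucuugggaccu
miR-125a-3p: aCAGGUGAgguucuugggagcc
miR-99a-3p: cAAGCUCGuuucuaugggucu
miR-99b-3p: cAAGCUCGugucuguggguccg
miR-100-3p: aCAAGCUUgugucuauagguau

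miR-125b-2-3p differs from miR-125b-1-3p by G3A, G4A, U7C, C11U and G20C, and all 3 miR-125 3p seeds are different. miR-99a-3p and miR-99b-3p share the seed AAGCUCG, which miR-100-3p lacks. The tables count reads per hairpin, so the arms cannot be told apart in any value that follows.

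The RNA was under 30 nt in size and came from left cerebral cortex of adult B6CASTF1/J mice, a first-generation hybrid strain, aged 18 to 20 months. There is 1 group of 2 biological replicates with no treatment, transgene or second condition. Both tissue records point to the same donor record, so the spread between these samples may be technical. The binomial and Fisher p-values below set their difference against counting noise alone. The labels contradict each other on sex, which was not used. Replicate 1 held 8041772 reads, of which 2381663 lay on the strand of a miRNA gene, and replicate 2 held 12239366 and 4436398. Levels are given in CPM, the reads of a gene scaled to a total of 1000000 such sense reads. A count of 0 would allow up to 1.26 CPM in replicate 1 and 0.676 CPM in replicate 2, for counting error only.

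The libraries also differed in ways that stand beside every result below. Unmapped reads made up 30.8% of replicate 1 and 14.6% of replicate 2, and multimapping reads 35.6% and 44.8%. Among tissue markers, the neuron list summed to 90441 and 71608 CPM, led by Mir132 at 69646 and 43349 CPM. The list's Mir128-1, Mir128-2, Mir138-1, Mir138-2, Mir218-1 and Mir218-2 were each higher in replicate 2. Their log2 ratios of replicate 1 to replicate 2 ran from -0.10 to -0.79. The oligodendrocyte list summed to 4684 and 3502 CPM, led by Mir338 at 3079 and 1778 CPM. Its Mir219a-1 and Mir219a-2 had log2 ratios of only -0.02 and -0.07. Endothelial Mir126a stood at 17007 and 18138 CPM. The mural list, for the muscle cells and pericytes of vessels, summed to 10855 and 5719 CPM. The myeloid list, led by Mir142, summed to 166 and 60.9 CPM. Markers of red blood cells, epithelium, liver and muscle stayed at 104 CPM or less per list in both libraries, and choroid plexus Mir204 stood at 669 and 583 CPM. In the neuron list 3 of 10 genes (the copies of miR-124) had under 10 reads. Reads that fit more than 1 copy would stand under no gene, so these counts are no measure of miR-124. What part these differences had in the results was not tested. In whole tissue, fewer cells of a type and less RNA per cell cannot be told apart.

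All 6 hairpins lie on the plus strand within introns of longer transcripts (mm10, GENCODE M21). Mir99a (ENSMUSG00000065530.1, chromosome 16, 77598936 to 77599000) and Mir125b-2 (ENSMUSG00000065472.1, chromosome 16, 77646273 to 77646343) lie in introns of the noncoding Mir99ahg, 47.3 kb apart. Mir100 (ENSMUSG00000093011.1, chromosome 9, 41531425 to 41531504) and Mir125b-1 (ENSMUSG00000093354.1, chromosome 9, 41581926 to 41582002) lie in introns of the noncoding 3110039I08Rik, 50.5 kb apart. On the opposite strand Mir100 overlaps an exon of the noncoding Gm48742, and Mir125b-1 also lies in an exon of Gm28119 on its own strand. Mir99b (ENSMUSG00000065396.1, chromosome 17, 17830188 to 17830257) and Mir125a (ENSMUSG00000065479.2, chromosome 17, 17830812 to 17830879) lie in introns of the protein-coding Spaca6, and their starts are only 624 bases apart. None of the 6 hairpins had a read on the opposite strand in either library.

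The miR-99/100 genes had nearly the same summed CPM in both libraries but a different make-up. Together they reached 21665 CPM in replicate 1 and 21369 CPM in replicate 2, a mean of 21517 ± 209 CPM (SD, n = 2). Mir99a, the most abundant of them on average, had 14798 CPM in replicate 1 against 9415 in replicate 2, places 13 and 21 among all miRNA genes. Mir100 stood at 4685 and 2648 CPM, places 41 and 53. Both were higher in replicate 1, as the plot of levels by cluster shows.

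Mir99b went the other way, with 2182 CPM in replicate 1 against 9306 in replicate 2, a move from place 63 to place 22. In replicate 2 it lay just under Mir99a, whereas in replicate 1 Mir99a was far above it. Of the reads of the 3 genes, Mir99b held 10.1% in replicate 1, with a 95% interval of 9.81 to 10.3 (exact binomial). Its share in replicate 2 was 43.5% (43.2 to 43.9). Mir99a held 68.3% (67.9 to 68.7) and 44.1% (43.7 to 44.4). Mir100 held 21.6% (21.3 to 22.0) and 12.4% (12.2 to 12.6). PCR copies of a molecule are counted as separate reads, so these intervals cover counting error alone.

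**Figure D1:**
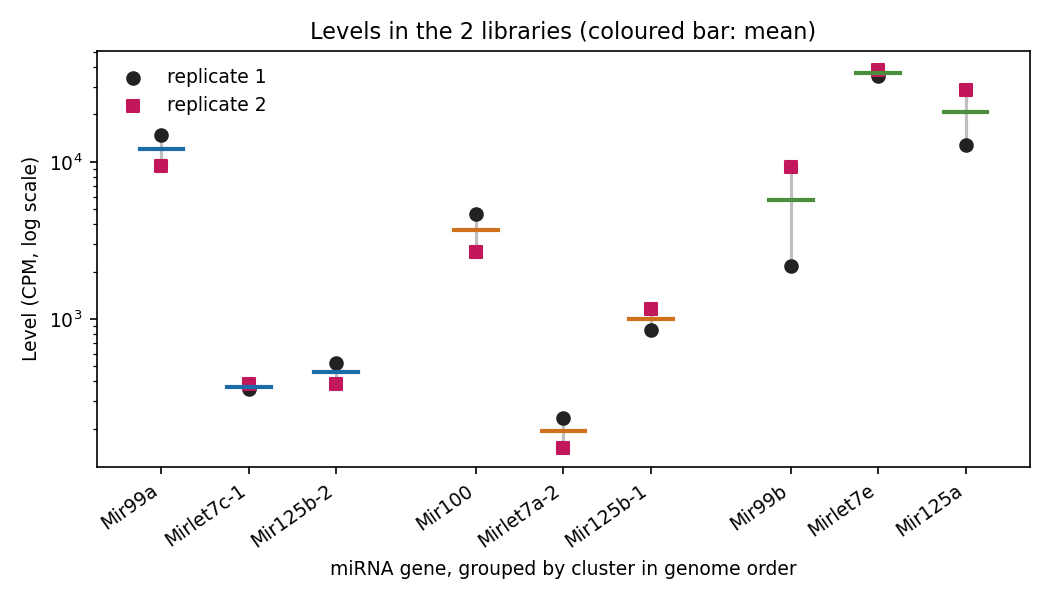
Level in CPM on a log axis for the miR-99/100, let-7 and miR-125 gene of each cluster, in genome order from chromosome 16 (left) through 9 to 17 (right). Circles are replicate 1, squares replicate 2 and coloured bars their mean. Mir99b has the widest gap, from 2182 to 9306 CPM, and Mirlet7e beside it one of the narrowest.

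The miR-125 genes were carried by Mir125a among reads assigned to a gene. Mir125a had 12855 CPM in replicate 1 against 28813 in replicate 2, places 15 and 9. It held 90.3% of the 3 genes' reads in replicate 1 (90.0 to 90.7) and 94.9% in replicate 2 (94.79 to 95.03). Mir125b-1 stood at 847 and 1157 CPM, and Mir125b-2 at 528 and 387 CPM. Mir125b-1 was the higher of the pair in both libraries. Since miR-125b-5p reads fit both of its loci, neither the shares nor these levels measure miR-125b itself.

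The summed miR-125 level was 14230 CPM in replicate 1 and 30358 CPM in replicate 2, a mean of 22294 ± 11404 CPM (SD, n = 2). In CPM this sum more than doubled from one library to the other, while the miR-99/100 sum moved by little. The family sums were not tried with all reads of a library as the total. The miR-125 sum can also leave out reads of miR-125b-5p. All 6 genes together summed to 35895 and 51727 CPM, which was 3.59% of sense miRNA reads in replicate 1 (3.57 to 3.61) and 5.17% in replicate 2 (5.15 to 5.19).

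**Figure D2:**
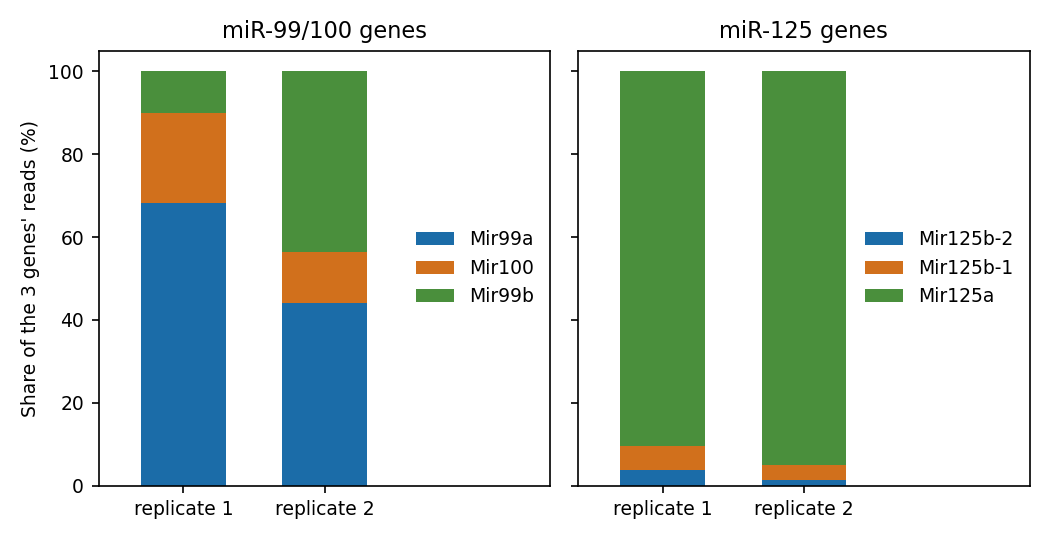
Share of each family's reads held by each of its 3 genes, in percent, with 1 stacked bar per library (left, miR-99/100 genes; right, miR-125 genes). Mir99b widens from 10.1% to 43.5% of miR-99/100 reads, and Mir125a fills over 90% of the miR-125 bar in both libraries.

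Levels of different genes were ordered per length, with each CPM scaled by the median hairpin length of 89 bases over the gene's own (65 to 80 bases here). Mir125a came first at 27268 ± 14769 length-scaled CPM (SD, n = 2), and Mir99a second at 16577 ± 5212. The ranges of these 2 genes over the libraries overlapped, and Mir99a was the higher in replicate 1. Mir99b at 7303 ± 6405 and Mir100 at 4079 ± 1602 also overlapped, and also changed places. Mir99a lay above Mir99b, Mir100 above Mir125b-1 (1158 ± 254) and Mir125b-1 above Mir125b-2 (574 ± 124) with no overlap. The order was the same in CPM without this scaling. There the ranges of Mir99a and Mir99b barely stood apart, at 9415 and 9306 CPM in replicate 2. Whether reads of such short RNA rise with hairpin length was not tested. With 2 libraries no exact test of an order can pass 0.05.

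All 6 genes differed between the libraries by more than counting noise. With library sizes from edgeR's TMM, a two-sided exact binomial test of each gene's reads, with p adjusted over the 472 genes by Benjamini-Hochberg, called 6 of 6. It called 52.1% of all tested genes. It compares 2 libraries, not conditions, and deep genes pass it at small differences: of the 95 genes with a mean of 1000 CPM or more it called 91. The count of 6 is thus no result about these genes, and the sizes say more. Of the 6 genes, 3 (Mir99a, Mir100 and Mir125b-2) were called higher in replicate 1, as were 24.6% of all tested genes. The other 3 (Mir125b-1, Mir99b and Mir125a) were called higher in replicate 2, as were 27.5% of all.

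Mir99b had the largest difference of the 6, with 5197 reads in replicate 1 and 41286 in replicate 2. Its log2 ratio of replicate 1 to replicate 2 was -2.06 ± 0.02 (counting SE), a fold of 4.18, the second largest in size among those 95 genes. Mir125a, with 30616 and 127827 reads, had a log2 ratio of -1.14 ± 0.01, the seventh largest, and a fold of 2.20. The adjusted p-values of both, and of Mir99a and Mir100, were too small for the computer to tell from 0.

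Mir100 had 11157 and 11749 reads and a log2 ratio of 0.85 ± 0.02, and Mir99a had 35245 and 41768 reads and a ratio of 0.68 ± 0.01. The smallest differences were those of the miR-125b genes. Mir125b-2, with 1257 and 1719 reads, had a log2 ratio of 0.47 ± 0.05 (adjusted p = 8.3e-18, exact binomial). Mir125b-1, with 2017 and 5134 reads, had one of -0.42 ± 0.04 (adjusted p = 3.0e-29, exact binomial). The median size of the 6 log2 ratios was 0.77, beside 0.39 for the 95 genes of 1000 CPM or more and 0.45 for all tested genes.

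**Figure D3:**
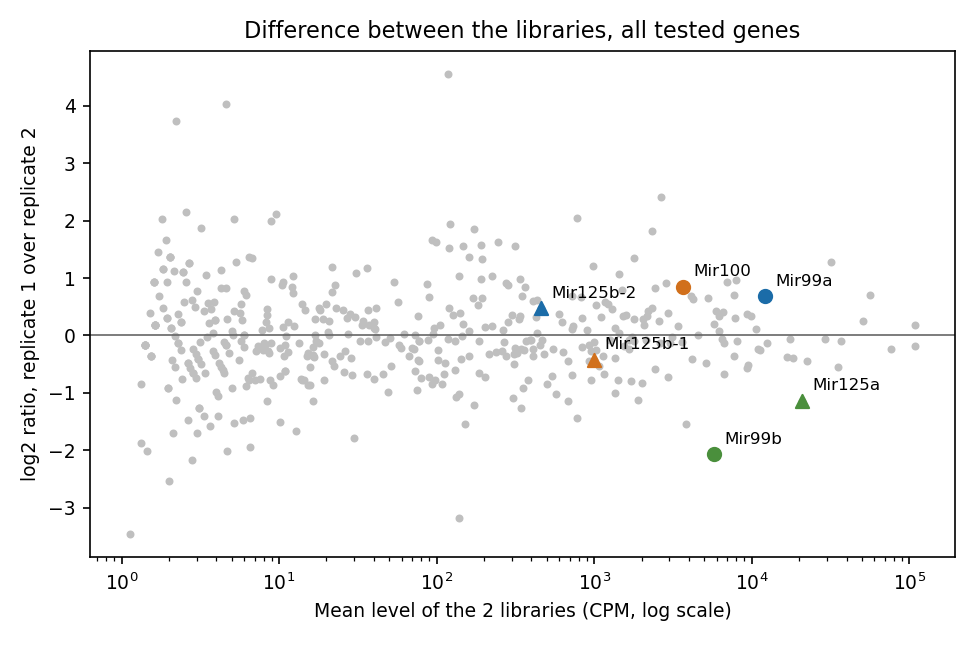
Log2 ratio of replicate 1 to replicate 2 against mean level in CPM (log axis) for the 472 tested miRNA genes in grey, with the 6 genes coloured by cluster (blue, chromosome 16; orange, 9; green, 17; circles, miR-99/100; triangles, miR-125). Mir99b at -2.06 lies at the lower edge of the genes of like level, and the other 5 lie between -1.14 and 0.85.

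edgeR's exact test could call few genes, because its spread came from the same 2 libraries that it compared. Its lack of calls is thus no result about the 6 genes, and it neither upholds nor removes the binomial calls. With 1 dispersion for all genes (coefficient of variation 0.351), it called 0 of the 6 genes and 0.424% of all tested. Mir99b alone had an unadjusted p under 0.05 in that exact test (p = 0.00635, adjusted p = 0.469 by edgeR). With all reads of a library as its size, which moved the median log2 ratio of all tested genes from -0.07 to -0.39, the ratios of Mir99a, Mir100 and Mir125b-2 shrank to 0.36, 0.53 and 0.15 and that of Mir125b-1 grew to -0.74. Those of Mir99b and Mir125a became -2.38 and -1.46. All 6 kept their direction and their binomial call, while the share of all called genes that were higher in replicate 1 went from 47.2% to 26.8%.

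Within the clusters, hairpins of the same host gene did not move as 1 unit. On chromosome 17 both members were higher in replicate 2, but Mirlet7e, which lies between them, stood at 35388 and 38565 CPM, a log2 ratio of only -0.10 ± 0.01. let-7 miRNAs restrain growth genes in differentiated cells. On chromosome 16 both members were higher in replicate 1, while Mirlet7c-1 between them stood at 356 and 386 CPM and did not pass the binomial test (log2 ratio -0.09 ± 0.06, adjusted p = 0.226, exact binomial). On chromosome 9 Mir100 and Mirlet7a-2 (235 and 152 CPM, log2 ratio 0.66 ± 0.08) were higher in replicate 1 and Mir125b-1 in replicate 2.

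The counts of Mirlet7c-1 and Mirlet7a-2 carry the same limit as those of the miR-125b genes. let-7c-5p is identical at Mirlet7c-2, and let-7a-5p, which RefSeq lists under Mirlet7a-1, also stands in the hairpin of Mirlet7a-2. The miRNA gene Gm25927 overlaps Mirlet7e only on the opposite strand, and with both strands counted together Mirlet7e had 0 reads in both libraries. Only exact copies of strands were searched, and how reads with a mismatch were placed is not known. On that search let-7e-5p, shown for contrast, was found at no other annotated locus:
let-7e-5p: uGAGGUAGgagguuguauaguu

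**Figure D4:**
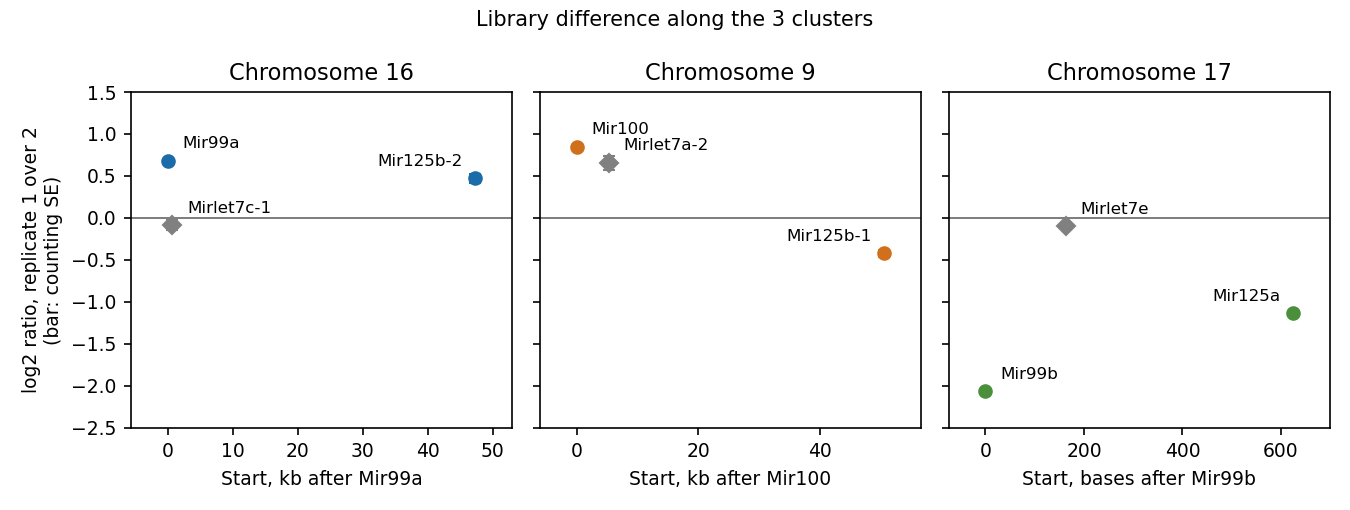
Log2 ratio of replicate 1 to replicate 2 for each hairpin by the distance of its start from the first hairpin of its cluster, in kb for chromosomes 16 and 9 and in bases for 17, with bars of 1 counting SE (often smaller than the point). Circles are members and grey diamonds the let-7 gene. On chromosome 17 Mirlet7e lies near 0 between Mir99b at -2.06 and Mir125a at -1.14.

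The balance of the miR-99/100 gene to the miR-125 gene of its cluster needs no library scaling. Mir99a had 28.0 times the reads of Mir125b-2 in replicate 1 and 24.3 times in replicate 2. Mir100 had 5.53 times the reads of Mir125b-1 in replicate 1 and 2.29 times in replicate 2. Mir125a had 5.89 times the reads of Mir99b in replicate 1 and 3.10 times in replicate 2. Among reads assigned to a gene, the family with more reads was thus the same in both libraries for each cluster. Reads of miR-125b-5p fit both of its loci and can be missing from the counts of Mir125b-1 and Mir125b-2. The balances of Mir99a and Mir100 can therefore overstate the miR-99/100 side, and by how much was not tested.

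The size of the balance differed in all 3 clusters. Fisher's exact test, two-sided, adjusted over 861 same-strand pairs of miRNA genes within 100 kb, called 3 of 3, where it called 73.2% of all pairs. Of those pairs 734 lie on chromosome 12, and off that chromosome it called 56.7% of 127. The log2 balance, replicate 1 minus replicate 2, was 1.27 ± 0.04 (counting SE) for Mir100 to Mir125b-1 and -0.93 ± 0.02 for Mir99b to Mir125a. For Mir99a to Mir125b-2 it was 0.21 ± 0.05 (adjusted p = 0.000269, Fisher's exact test). The median size over all 861 pairs was 0.70, so the first 2 lie above it and the last below. This test allows for counting noise alone, and the 2 balances with a miR-125b gene keep the limit of reads that fit both loci.

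Against the let-7 gene between them the shifts were uneven. The log2 balance of Mir99b to Mirlet7e, whose starts are 164 bases apart, moved by -1.97 ± 0.02, from 1 read of Mir99b per 16.2 of Mirlet7e in replicate 1 to 1 per 4.14 in replicate 2. That shift was the 57th largest of the 861 pairs. Mir99a to Mirlet7c-1 moved by 0.77 ± 0.06, more than Mir99a to Mir125b-2. Mir100 to Mirlet7a-2 moved by 0.19 ± 0.08 (adjusted p = 0.0346, Fisher's exact test), less than Mir100 to Mir125b-1. On the miR-125 side, Mirlet7e to Mir125a moved by 1.04 ± 0.01 and Mirlet7a-2 to Mir125b-1 by 1.08 ± 0.09. Mirlet7c-1 to Mir125b-2 moved by -0.56 ± 0.08. Counts of Mirlet7c-1, Mirlet7a-2 and the miR-125b genes can leave out reads that fit other loci.

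**Figure D5:**
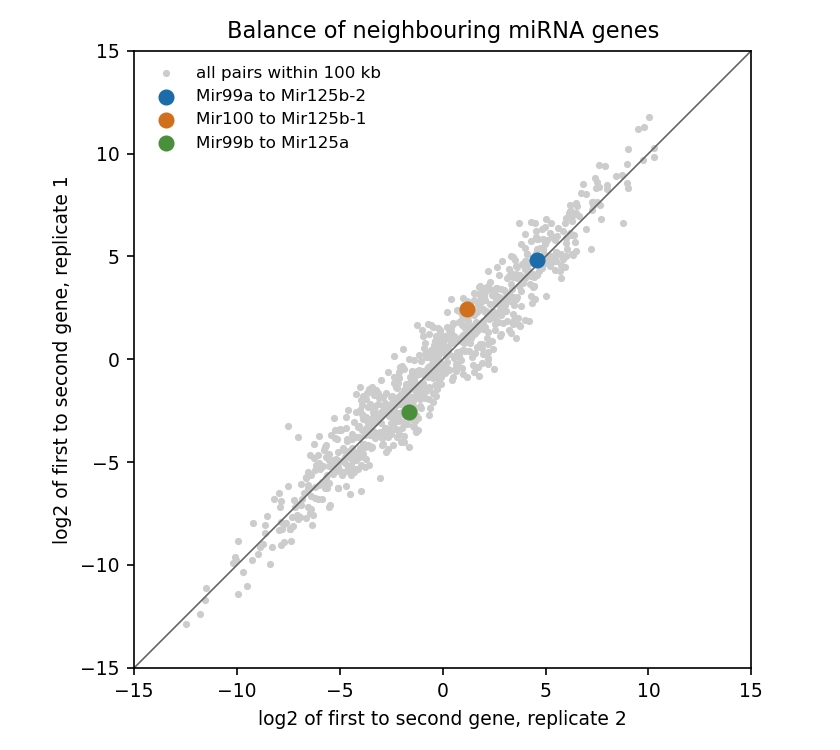
Log2 ratio of the reads of the first to the second gene of a pair in replicate 1 (vertical) against replicate 2 (horizontal) for 861 same-strand pairs within 100 kb (grey), with the line of equal balance. The Mir99a pair lies near the line, the Mir100 pair above it by 1.27 and the Mir99b pair below it by 0.93.

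The miR-10 genes, relatives by sequence, were scarce in this cortex. The miR-10 strands, which resemble miR-99/100 but have another seed, come from Mir10a and Mir10b, genes known for their place in the Hox clusters. miR-100-5p and miR-10a-5p are 3 edits apart and share a stretch of 11 bases:
miR-10a-5p: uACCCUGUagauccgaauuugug

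Mir10a had 39 and 36 reads (16.4 and 8.11 CPM), and Mir10b had 64 and 72 reads (26.9 and 16.2 CPM). Of the 5 other genes listed for these families, the 3 let-7 neighbours and the 2 miR-10 genes, the binomial test called 4, beside 52.1% of all tested genes, and edgeR's exact test called 0 of the 5. Mir10a, Mir10b and Mirlet7a-2 were higher in replicate 1 and Mirlet7e in replicate 2.

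The miR-125 seed CCCUGAG stands in 6 of the 1738 RefSeq mature strands (0.345%). Besides the 3 from miR-125 genes these are miR-351-5p, miR-6367 and miR-6394. Mir351, chosen after its values were seen, had 215 and 825 reads, or 90.3 and 186 CPM, and a log2 ratio of -1.01 ± 0.11 (adjusted p = 6.6e-22, exact binomial). Mir6367 and Mir6394 had no read in either library.

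The genes nearest to each member in level were found by the distance of log2(CPM + 1) over the 2 libraries. They were Mir433 and Mir191 for Mir99a, Mir335 and Mir98 for Mir100, and Mir23b and Mir29a for Mir125a. For Mir125b-1 they were Mir381 and Mir15a, and for Mir125b-2 Mir322 and Mir501. These distances ran from 0.13 to 0.56 log2 units. Mir99b had no neighbour as close: Mir195a, at 1939 and 5763 CPM, lay 0.71 away and Mir92b, at 4226 and 5995 CPM, 1.15 away. With 2 libraries such likeness rests mostly on level.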

How the data were processed

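MicroRNA sequencing of 2 libraries was used. The authors deposited whole-number read counts per miRNA gene, not normalized, for build mm10 and GENCODE M21, per the notes deposited with the tables. The aligner is not given in the sources used here. The summary lines (unmapped, multimapping, no-feature) were kept out of library sizes. Only sense-strand reads entered the tests. All 2202 identifiers matched GENCODE M21. TMM factors (0.990 and 1.01) came from edgeR 4.0.16 in R 4.3.3 over the 472 genes that had 10 or more reads in total. Ratios added 0.5 reads. The binomial and Fisher tests (scipy 1.17.1, Python 3.11.15, threshold 0.05) were tried on simulated counts. Those counts held counting noise alone, with no further spread between libraries, so they do not show how the tests behave under such spread. With 1 group, no quasi-likelihood test exists. Copies of mature strands were searched in GENCODE transcripts on both strands. Named were the 6 genes, their let-7 neighbours, Mir10a and Mir10b, the 2 nearest genes each and the tissue markers. Members and lists were chosen with earlier results of these data known. Alternatives covered library size, strand column, read minimum, pair window, hairpin length and edgeR's exact test.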

Additional observations from a re-analysis of the deposited data

How the results depend on the processing

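The calls of all 6 genes between the libraries and their directions were the same with library totals, RLE factors, all reads, other read minimums (1 and 100 reads), both strands together and, chosen after seeing the data, TMM over all annotated genes. The read minimums and the strand column left the reads of the 6 genes themselves unchanged, since none had a read on the opposite strand. Sameness under those settings was thus nearly fixed in advance and is no separate support. edgeR's exact test called 0 of them, with every direction kept, but its 1 shared dispersion came from the same 2 libraries, so it could call few genes. The order of the levels, with 3 of 5 neighbours apart, was the same under every denominator tried. The summed level of 43811 CPM became 14690 CPM with all reads as the total and 56959 when scaled to hairpin length. Leaving out a library left 35895 to 51727 CPM. A library left out leaves no ratio, so those were not run. Of the 3 cluster balances, only that of Mir99b to Mir125a lies within 10 kb, and it was called there (1 of 1, with 73.6% of 394 pairs). The other pair settings called 3, but they used the same reads of these genes and changed only the set of pairs that p was adjusted over. Depth limits none of the 6 genes, the least of which had 1257 reads in a library, but the counts of the miR-125b genes can leave out reads that fit both loci, and how many was not tested.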
